A study of Danio rerio with 33 samples.

Results

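The miR-148 and miR-152 family of zebrafish was represented by 2 of the 247 known mature miRNAs in the tables, dre-miR-148 and dre-miR-152. The members were chosen by their miRNA number, with any letter or arm accepted, and the family was selected on its measured female and male levels, which were higher in female liver and female gut. Those female and male values are therefore given below as a description, with no test of the members. Tests of the members were kept to the comparisons that contain neither female liver nor female gut. Both members were counted in all 32 libraries, miR-148 with 126 to 7915 reads and miR-152 with 84 to 2420 reads.

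A miRNA recognises its target mRNAs mainly through the seed, a short stretch near its 5′ end, and lowers their stability or translation. miR-148 and miR-152 carry the same seed and are counted as a single seed family, so that they are expected to share many targets. In mammals the family is known for repression of the DNA methyltransferase DNMT1 and, in liver, of the LDL receptor and the cholesterol exporter ABCA1. In the RefSeq annotation of assembly GRCz12tu, the gene dre-mir-148 lay within the span of hnrnpa3, which encodes a protein that binds nuclear RNA, with agps and nfe2l2a as the nearest genes on either side. The gene dre-mir-152 lay within the span of copz2, a coat protein subunit of transport vesicles, between nfe2l1a and prr15la. The 2 members therefore came from separate loci, each beside a gene of the nfe2l transcription factor family. The mRNAs of these neighbours were not measured.

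Small RNA was sequenced from wild type zebrafish of the Singapore strain, bought from a local supplier and not treated. Brain, gut and liver were taken from males and females apart, which together with embryo, both gonads (ovary and testis), eye and heart made 11 sample groups, each of 3 libraries, or 2 for heart. Several fishes were pooled for each library of an adult tissue, the embryo libraries combined several early stages with juveniles, and the labels do not specify the sex of the embryo, eye and heart samples, of which the study's text gives eye and heart as male. These are whole tissues, in which fewer cells of a type and less RNA per cell cannot be told apart.

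The depth on known mature miRNAs ranged from 277699 to 11732555 reads per library, and since the reads carry no molecular identifiers, intervals cover counting error only and not the error of amplification. The deposited normalized read counts were scaled with TMM, which assumes that most miRNAs do not change, and the smallest TMM factors, 0.503 to 0.715, belonged to the 3 female liver libraries. The liver marker miR-122 was highest in female liver, and the 5 gut markers were all highest in male gut. The same 5 markers were also read in both liver groups. They summed to 121001 to 174348 there, against 260903 to 373806 in the gut groups. By mean, the largest of them in liver was miR-194a, at 101871 in females and 89735 in males. Whether their liver reads came from gut tissue or from liver cells was not tested. The p-values measure the spread between these pools of fishes.

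miR-148 was most abundant in female liver and least abundant in brain. Its normalized read counts were 4165, 6072 and 4300 in the female liver libraries and 982, 908 and 955 in the male liver libraries. In gut they were 1564, 1699 and 1732 in females and 539, 502 and 431 in males. Each female library of liver and gut was above each male library of its tissue, and female liver replicate 2 stood above the other 2 female liver libraries. In brain the counts were 97.1, 83.7 and 80.2 in females and 86.6, 91.3 and 95.6 in males, so that the sexes overlapped there.

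Outside these organs, miR-148 was at an intermediate level. The ovary libraries held 403, 485 and 376 normalized reads and the testis libraries 412, 273 and 341. The embryo libraries held 234, 235 and 249, the eye libraries 203, 228 and 241, and the heart libraries 219 and 204. Ovary and testis overlapped, as did embryo with eye and eye with heart. The mean of female liver was 55.7-fold that of female brain, the lowest group.

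miR-152 followed the same outline at lower levels and over a narrower range. Its normalized read counts were 1067, 1440 and 1140 in female liver and 442, 416 and 396 in male liver. In female gut they were 409, 476 and 488, and in male gut 177, 171 and 142. As for miR-148, the female libraries of both organs were above the male ones without overlap. Brain was again lowest, with 64.7, 72.6 and 67.6 in females and 61.1, 71.0 and 75.8 in males, and the sexes overlapped.

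In the other groups, miR-152 varied little. The ovary libraries held 240, 210 and 179 normalized reads and the testis libraries 200, 130 and 177. The embryo libraries held 161, 136 and 163, the eye libraries 185, 180 and 222, and the heart libraries 181 and 172. All 5 of these groups and male gut lay between brain and male liver, and most of them overlapped with each other. The mean of female liver was 17.8-fold that of female brain.

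**Figure D1:**
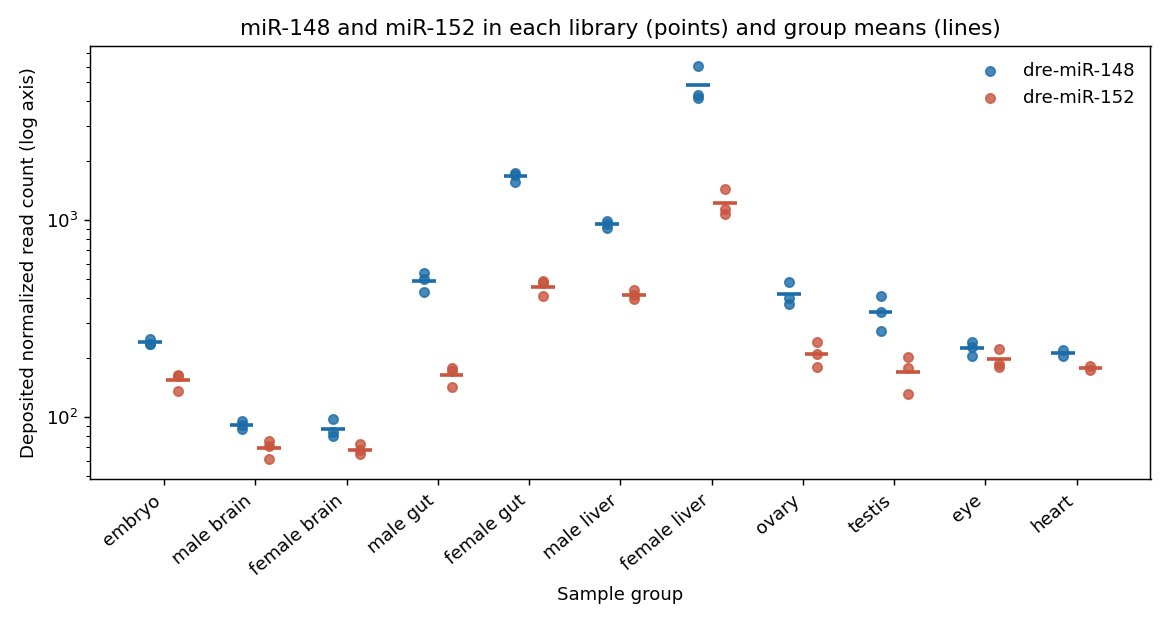
Deposited normalized read count of dre-miR-148 and dre-miR-152 (log axis) in each library (points) of the 11 sample groups, with the group mean as a line. Both miRNAs were highest in female liver, with means of 4846 and 1216, and lowest in the brain of either sex.

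The order of the groups was not the same for both members. For miR-148 it ran female liver, female gut, male liver, male gut, ovary, testis, embryo, eye, heart, male brain and female brain. Neighbours in this order overlapped from male gut to ovary, from ovary to testis, from embryo to eye, from eye to heart and between the brains, and did not overlap elsewhere. For miR-152 it ran female liver, female gut, male liver, ovary, eye, heart, testis, male gut, embryo, male brain and female brain. Here female gut overlapped with male liver, and each neighbour from ovary down to embryo overlapped with the next. Male gut thus held the place after male liver for miR-148 and a place behind eye, heart and both gonads for miR-152. Among the 247 miRNAs of a group, miR-148 ranked 30 by mean level in female liver and 146 in both brains, and miR-152 ranked 59 in female liver and 151 in male brain.

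The replicates of a group were close to each other. The SD was between 3.61% and 22.0% of the group mean for miR-148, with a median of 8.66%, and between 3.28% and 21.0% for miR-152, with a median of 10.8%. For both members, female liver and testis had the widest spread. The lowest value for miR-152 was that of heart, with 2 libraries, after the paper had removed a heart replicate that clustered apart.

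Female and male levels are described first, since they chose the family. In liver, the female libraries held a mean of 4846 ± 1064 (SD, n = 3) normalized reads of miR-148, which is 5.11-fold higher than the 948 ± 37.4 (SD, n = 3) of the male libraries, with single pairs of libraries between 4.24-fold and 6.69-fold. For miR-152 the female mean of 1216 ± 197 (SD, n = 3) was 2.91-fold the male mean of 418 ± 23.2 (SD, n = 3). Over all miRNAs, 15.1% passed the test described below in either direction between female and male liver, and nothing is read from this for the members, which were selected on these values.

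In gut, the female means were 1665 ± 88.9 (SD, n = 3) for miR-148 and 458 ± 42.7 (SD, n = 3) for miR-152. The male means were 491 ± 54.7 (SD, n = 3) and 163 ± 18.6 (SD, n = 3), so that the female levels were 3.39-fold and 2.80-fold higher. Over all miRNAs, 2.94% passed between female and male gut, and again nothing is read from this for the members.

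The size of the liver difference depended on the scaling. As a share of all miRNA reads, without TMM scaling, miR-148 took 0.298%, 0.306% and 0.297% of the reads in the female liver libraries and 0.0941%, 0.0934% and 0.107% in the male ones. The female share was 3.06-fold the male share, and female liver replicate 2 no longer stood apart. For miR-152 the shares were 0.0763%, 0.0725% and 0.0786% in female liver and 0.0424%, 0.0427% and 0.0443% in male liver, a 1.76-fold difference. Without TMM scaling the median log2 difference of all miRNAs between female and male liver shifted by -0.71. In gut the shares differed by 3.77-fold for miR-148 and 3.11-fold for miR-152, somewhat more than after scaling. Female and male libraries did not overlap in liver or gut on either scale. How many of all miRNAs separated in this way was not counted here, so nothing is read from the separation for the members. On the normalized scale, 3 of the 4 leukocyte markers named below also separated in each organ, but were lower in females. So did 3 of the 4 pancreas markers in each organ, lower in females except for miR-216a in gut. The liver marker miR-122 separated in both organs and was higher in females. The same held for the markers abundant in ovary or early embryo, 3 of 4 in liver and 4 of 4 in gut. Of the 5 gut markers, 0 separated in gut and 3 in liver. Those were miR-194b, miR-459-3p and miR-459-5p, each lower in female liver. The other gut markers, miR-192 and miR-194a, overlapped in liver, with higher female means.

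**Figure D2:**
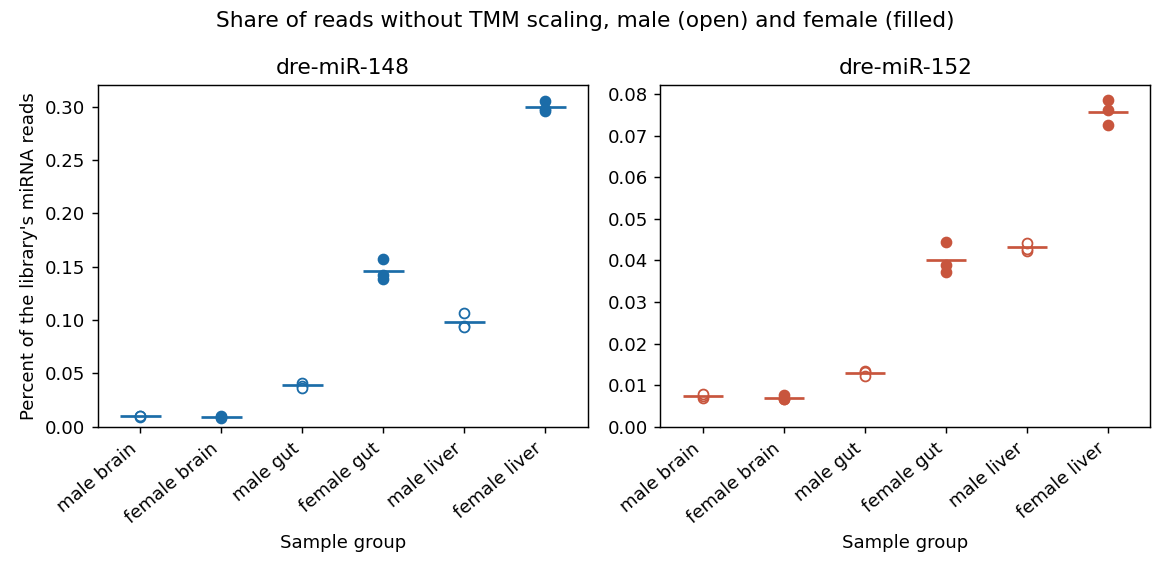
Percent of the miRNA reads of each library (points, linear axes that start at 0) taken by dre-miR-148 and dre-miR-152 in male (open) and female (filled) brain, gut and liver, with the group mean as a line. The female liver libraries held 0.297% to 0.306% for miR-148 and the male ones 0.0934% to 0.107%, while the brain libraries of both sexes were at or below 0.0101%.

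Markers of other cells and tissues moved with sex in the same organs. The 4 markers that are abundant in ovary or early embryo, miR-430a, miR-430b, miR-430c and miR-34c, summed to 77.7 to 99.9 normalized reads in female liver against 1.97 to 4.56 in male liver. In gut they summed to 61.9 to 72.9 in females against 0 to 2.68 in males, where 2 of the 4 were at 0. In brain they summed to 79.3 to 135.6 in females, where 1 of the 4 was at 0, and to 63.8 to 72.2 in males, where 2 of the 4 were at 0. The gonad markers, both arms of miR-202, did not follow this pattern. They summed to 322 to 580 in female liver and 528 to 1013 in male liver, and to 312 to 534 in female gut and 236 to 408 in male gut. The ovary libraries held 2759 to 9259 for the first list, 45064 to 47425 for miR-202 and 376 to 485 normalized reads of miR-148. Whether RNA of ovary or eggs contributed to the female levels of the family was not tested.

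The liver marker miR-122 was at 77658 to 124047 in female liver against 31463 to 45261 in male liver, and at 7977 to 11329 in female gut against 1855 to 2355 in male gut. The means in female liver and female gut were 105502 and 9475 for miR-122, and 4846 and 1665 for miR-148. The 4 pancreas markers (miR-375, miR-216a, miR-216b and miR-217) and the 4 leukocyte markers (miR-142a-3p, miR-142a-5p, miR-223 and miR-150) were lower in females when summed. In liver the pancreas sum was 1990 to 2991 in females and 4912 to 5858 in males, and the leukocyte sum 2141 to 3101 and 3873 to 5030. In gut the pancreas sum was 4642 to 5509 and 5948 to 6839, and the leukocyte sum 3801 to 4656 and 5318 to 5923. By mean, all 4 leukocyte markers were lower in females in both organs, as were all 4 pancreas markers in liver, while in gut 2 of the 4 pancreas markers were higher in females, miR-216a at 288 against 232 and miR-217, with overlap, at 1113 against 1074. The sum of the brain markers (miR-9-5p, miR-124, miR-128 and miR-138) was lower in females too. It was 1051 to 1336 against 1589 to 2114 in liver and 1849 to 2318 against 2879 to 3238 in gut. Among them miR-128 in liver was the exception (818 in females, 695 in males). The blood markers miR-451 and miR-144 summed to 6134 to 8407 in female gut against 8742 to 16663 in male gut. In liver their sums overlapped, at 6693 to 9592 in females and 8068 to 14521 in males. By mean, both blood markers were lower in females in both organs, and in liver miR-144 did not overlap. The part of these markers in the levels of miR-148 and miR-152 was not tested.

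The family was next compared between groups without female liver and female gut. Male liver and male gut had been the comparators of the choice, so that comparisons with them use different contrasts than the choice did but are not independent of it. Differences were tested with edgeR's quasi-likelihood model in the glmTreat form, which asks whether a log2 fold change exceeds 1, fitted to all 238 miRNAs with a read and with Benjamini-Hochberg adjustment over them. Between male liver and male brain, both members were higher in liver, miR-148 by 3.37 ± 0.16 on the log2 scale (SE, edgeR adjusted p = 8.52e-15) and miR-152 by 2.59 ± 0.16 (SE, edgeR adjusted p = 3.70e-11). Between these organs 66.4% of the miRNAs passed the test in either direction, so that passing was common. By size, miR-148 ranked 27 and miR-152 ranked 40 among the 238 differences, counted from the most liver-enriched.

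Male gut was also above male brain. The log2 difference was 2.43 ± 0.15 for miR-148 (SE, edgeR adjusted p = 1.18e-10) and 1.24 ± 0.16 for miR-152 (SE, edgeR adjusted p = 0.0350), in a comparison in which 62.2% of the miRNAs passed. The call for miR-152 was not stable. It was lost without male brain replicate 1, at 1.01, and without male gut replicate 1, 2 or 3, at 0.84, 0.87 and 0.92, where the TMM factors were also computed anew. With the TMM factors of all libraries kept, the values without a library of either group were 1.16 to 1.32, and the call was still lost without male brain replicate 1, male gut replicate 1 or male gut replicate 2. With library size alone, the difference of miR-152 was 0.80 and was not called, while the median of all miRNAs shifted by -0.44.

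Male liver and male gut did not differ by the test. miR-148 was higher in liver by 0.95 ± 0.14 on the log2 scale (SE, edgeR adjusted p = 1) and miR-152 by 1.35 ± 0.15 (SE, edgeR adjusted p = 0.0606), and 5.46% of all miRNAs passed. The libraries of the organs did not overlap for either member, and the quasi-likelihood F-test without a fold threshold called both. The share of all miRNAs without overlap, or called by that F-test, was not counted here. miR-152 was called with library size alone, at 1.74, and without male gut replicate 1, at 1.48, but not without that library when the TMM factors of all libraries were kept.

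Male liver was above testis for both members. The log2 difference was 1.47 ± 0.15 for miR-148 (SE, edgeR adjusted p = 0.000964) and 1.31 ± 0.15 for miR-152 (SE, edgeR adjusted p = 0.0215), where 35.7% of the miRNAs passed. The call for miR-152 was lost without testis replicate 2, at 1.14, without male liver replicate 1, at 1.26, and with the size factors of DESeq2, at 1.19.

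Ovary and testis did not differ by the test. Ovary was above testis by 0.30 ± 0.15 for miR-148 and 0.30 ± 0.16 for miR-152 on the log2 scale (SE, edgeR adjusted p = 1 for both), in a comparison in which 30.3% of the miRNAs passed. Embryo was below ovary by -0.81 ± 0.15 for miR-148 (SE, edgeR adjusted p = 0.999) and -0.44 ± 0.16 for miR-152 (SE, edgeR adjusted p = 1), where 45% of the miRNAs passed. Without a fold threshold, the F-test called both of these embryo differences. The share of all miRNAs called by that F-test was not counted here, so nothing is read from these calls for the members.

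Female and male brain, the organ in which the sexes could be tested, gave differences near 0. Female minus male was -0.08 ± 0.15 for miR-148 and -0.03 ± 0.16 for miR-152 on the log2 scale (SE, edgeR adjusted p = 1 for both), and 3.78% of all miRNAs passed. The sign for miR-152 was not stable, at 0.043 with the size factors of DESeq2. Whether the sex difference of the family differed between brain and the other organs was not tested, because liver and gut had been used to choose it.

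Eye was above male brain, by 1.29 ± 0.15 for miR-148 (SE, edgeR adjusted p = 0.0186) and 1.49 ± 0.16 for miR-152 (SE, edgeR adjusted p = 0.00119) on the log2 scale, with 49.2% of the miRNAs passing. Both calls were lost without eye replicate 3, at 1.02 and 1.19, where the TMM factors were also computed anew. With the TMM factors of all libraries kept, the values without that library were 1.23 for miR-148, which was not called, and 1.39 for miR-152, which was. Both calls were also lost with the size factors of DESeq2, at 0.94 and 1.13. Those size factors moved the median of all miRNAs in this comparison by -0.34. Heart and eye did not differ by the test, at -0.08 ± 0.16 for miR-148 and -0.15 ± 0.17 for miR-152 (SE, edgeR adjusted p = 1 for both), where 4.62% of the miRNAs passed. With library size alone the signs turned, to 0.16 and 0.093. The heart libraries also held the eye markers miR-96, miR-182-5p and miR-183. These summed to 59081.5 to 72236.5 normalized reads in heart against 83130 to 86675 in eye. By mean, 2 of the 3 were highest in eye and 1 in heart. The brain markers summed to 28726 to 33396 in heart. The heart and muscle markers miR-499, miR-1 and miR-133a-3p summed to 7448 to 8444 in heart, 7515 to 7882 in embryo and 978 to 1111 in eye. The part of the eye and brain markers in this comparison, and in the other values of heart, was not tested.

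**Figure D3:**
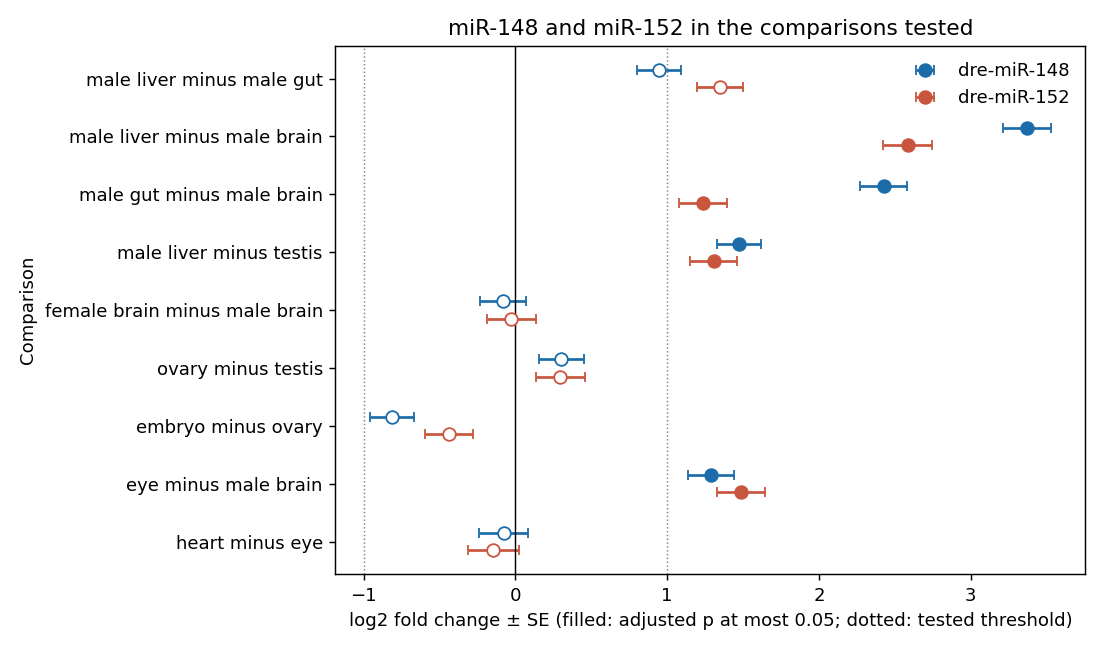
Log2 fold change ± SE of dre-miR-148 and dre-miR-152 in the 9 comparisons tested with edgeR's glmTreat, filled where the adjusted p was at most 0.05, with dotted lines at the tested threshold of 1 in either direction. Male liver against male brain gave the widest differences, 3.37 for miR-148 and 2.59 for miR-152, and female against male brain gave values near 0.

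Over all 36 pairs of the 9 groups other than female liver and female gut, edgeR's glmTreat called miR-148 in 17 and miR-152 in 15. Over all 238 miRNAs, 48% of such tests were called, a share near those of the members. The count for miR-152 fell to 6 with the size factors of DESeq2 and to 4 with the DESeq2 test. Under those settings the count for miR-148 was 16 and 14. With a library left out and the TMM factors computed anew, the count for miR-152 was 7, 6 and 6 without male gut replicate 1, 2 and 3, and 6 without testis replicate 2. With the TMM factors of all libraries kept, these counts were 12, 12, 15 and 15.

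The balance between the members is free of any scaling, since both are counted in the same library. Reads were not corrected for how efficiently each miRNA is cloned, and how reads that match both members were assigned is not given in the sources used here, so the balance is one of reads and its differences between groups are of interest rather than its level. miR-148 took 74.7% to 75.2% of the family's reads in male gut, 68.6% to 70.7% in male liver and 55.8% to 58.6% in male brain. The 3 organs did not overlap. Eye, at 52.1% to 55.8%, and heart, at 54.2% and 54.8%, were close to brain. The heart libraries held eye and brain markers, as given above, so heart is not taken as independent of these tissues. Ovary, at 62.7% to 69.8%, and testis, at 65.8% to 67.7%, lay above brain, and ovary overlapped with male liver.

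There were thus on average 3.01 ± 0.0511 (SD, n = 3) reads of miR-148 per read of miR-152 in male gut, 2.27 ± 0.122 (SD, n = 3) in male liver and 1.32 ± 0.0836 (SD, n = 3) in male brain. On the log2 scale, the ratio differed by 1.19 between male gut and male brain, by 0.78 between male liver and male brain and by 0.40 between male gut and male liver. Each of these 3 differences had p = 0.1 in a two-sided exact permutation test, the smallest p that 3 libraries against 3 allow, and 0.2 after Benjamini-Hochberg adjustment over the 6 ratio comparisons made. No p below 0.05 was possible in this design.

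In the remaining ratio comparisons the libraries overlapped. The difference was -0.06 between female and male brain (two-sided exact permutation test, p = 0.6), -0.01 between ovary and testis (p = 1, same exact test) and -0.36 between embryo and ovary (p = 0.2, same exact test). The sign of the first turned without female brain replicate 2, at 0.015, and that of the second without ovary replicate 1, at 0.13. Low counts of the members limited these values in brain, and low depth those in ovary. In ovary replicate 1, the shallowest library, miR-148 made up 62.7% of the family's reads (168 of miR-148 and 100 of miR-152). Its 95% Wilson interval was 56.8% to 68.3%. In female brain replicate 2, for example, miR-148 made up 53.5% of the family's reads (174 of miR-148 and 151 of miR-152), with a 95% Wilson interval of 48.1% to 58.9%.

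In female liver and female gut the balance is a description only. miR-148 took 79.0% to 80.8% of the family's reads in female liver against 68.6% to 70.7% in male liver, and 78.0% to 79.3% in female gut against 74.7% to 75.2% in male gut. The female libraries were above the male ones in both organs, and the female and male brain libraries overlapped, at 53.5% to 60.0% and 55.8% to 58.6%. The female to male fold was larger for miR-148 than for miR-152, 5.11-fold against 2.91-fold in liver and 3.39-fold against 2.80-fold in gut.

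**Figure D4:**
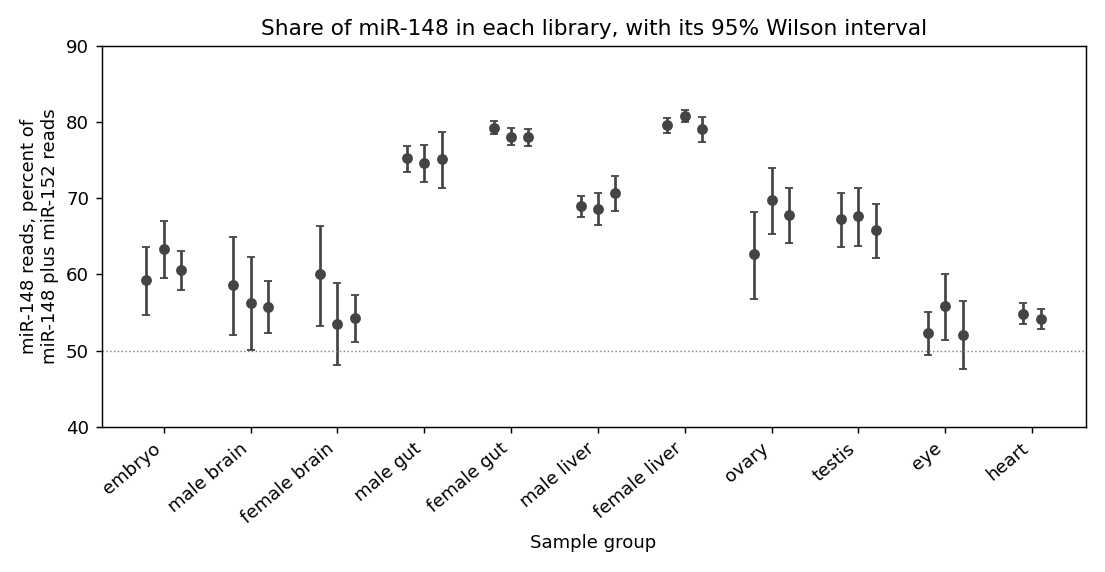
Percent of the miR-148 plus miR-152 reads that were miR-148 in each library of the 11 sample groups, with 95% Wilson intervals for counting error and a dotted line at 50% (the axis starts at 40%). The share was 79.0% to 80.8% in female liver, 74.7% to 75.2% in male gut and 52.1% to 55.8% in eye.

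By pattern over the groups, each member was the miRNA nearest to the other. The Pearson correlation of log2(mean normalized read count + 1) over the 11 groups was 0.970, the highest for either member among the 216 miRNAs with a mean of at least 10. It was 0.969 over the 32 libraries and 0.923 over the 9 groups without female liver and female gut, where miR-152 was still the nearest to miR-148. These points share the scaling of their libraries and, in part, their tissue, so the correlations are descriptions.

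After miR-152, the miRNAs nearest to miR-148 were miR-17a-5p (r = 0.882) and miR-19c (r = 0.817), whose mammalian counterparts come from the same polycistronic clusters and act in proliferation, together with miR-199-5p (r = 0.823) and miR-722 (r = 0.810). Those nearest to miR-152 after miR-148 were miR-199-5p (r = 0.876), let-7e (r = 0.838), miR-17a-5p (r = 0.838) and miR-22a (r = 0.833). miR-17a-5p and miR-199-5p were on both lists. Of these miRNAs, miR-722 was highest in male liver, at a mean of 5770 against 5712 in female liver, and all others were highest in female liver. miR-17a-5p, for example, had a mean of 1417 in female liver, 471 in male liver, 628 in female gut and 394 in male gut. The lists depended on female liver and female gut. Without those groups, 1 of the 5 miRNAs nearest to miR-148 and 3 of the 5 nearest to miR-152 stayed among the 5. The 1 that stayed for miR-148 was miR-152 itself, so none of the other miRNAs named for miR-148 stayed. Over the 9 remaining groups, r with miR-148 was 0.745 for miR-17a-5p, 0.7995 for miR-19c, 0.763 for miR-199-5p and 0.68 for miR-722. With miR-152 it was 0.853 for miR-199-5p, 0.537 for let-7e, 0.618 for miR-17a-5p and 0.810 for miR-22a.

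Of other miRNAs with the family's mammalian roles, few passed between the sexes. The first list held 13 miRNAs with roles in cholesterol and lipid metabolism in mammals, among them the hepatocyte miRNA miR-122, miR-128 and miR-27b. Between female and male liver, 0 of the 13 passed edgeR's glmTreat in either direction, where 18 of 238 were higher and 18 lower. At an unadjusted p under 0.05 it was 1, miR-122, with a log2 difference of 1.38. Between female and male gut, 1 of the 13 was higher, miR-122 with a log2 difference of 2.12 (edgeR adjusted p = 0.00698), and 0 were lower, where 6 of 238 were higher and 1 lower. At an unadjusted p under 0.05 it was 2 in gut, miR-122 and miR-144, which was lower in females with a log2 difference of -1.27. The second list held 7 miRNAs that repress DNA methyltransferases in mammals, from the miR-29, miR-101, miR-126 and miR-143 families, and by edgeR's glmTreat 0 of the 7 passed in either organ, also at an unadjusted p under 0.05.

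Between male liver and male brain, 4 of the 13 lipid miRNAs were higher in liver and 3 lower, with a median log2 difference of -0.14 against 0.00 over all miRNAs, of which 76 of 238 were higher and 82 lower. miR-122 was higher by 10.85, while miR-128, which is abundant in neurons, was lower (log2 difference -4.84). Of the 7 DNA methyltransferase miRNAs, 4 were higher and 0 lower, namely miR-101b, at 3.26, miR-126a-3p, miR-126b-3p and miR-143, with a median of 1.62. Between male gut and male brain, 5 of the 13 were higher and 3 lower, and 3 of the 7 were higher and 0 lower, where 71 of 238 miRNAs were higher and 77 lower. Between male liver and testis, 1 of the 13, miR-122, and 1 of the 7, miR-101b, were higher and 0 were lower, where 43 of 238 miRNAs were higher and 42 lower.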

How the data were processed

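Libraries were assigned to groups and replicates by their titles, and table columns by name. Another heart sample was not analysed here, and the paper had removed a heart replicate that clustered apart. The authors trimmed adaptors and counted reads on known mature miRNAs of miRBase with miRDeep2 (its quantifier step), and the raw read counts were deposited by the authors. The authors also deposited a TMM normalized signal, in which a single factor per library multiplies the counts. Levels in the text are from this table. The fit in edgeR 4.0.16 (R 4.3.3) had 1 coefficient per group over 32 libraries and used TMM factors, the quasi-likelihood fit and glmTreat at a log2 fold change of 1, and a call at an adjusted p of at most 0.05. The step was tested on simulated data. Alternatives were DESeq2 1.42.0 and its size factors, a filter on low counts, library size alone, other tests, a replicate block, fits of the compared groups alone and leaving out each library. Counting error is set by 277699 to 11732555 reads per library, while the tests rest on the spread between libraries. Likeness used a pseudocount of 1 and miRNAs with a mean of at least 10. The text names the members, the 4 nearest other miRNAs by pattern and called miRNAs of the lists. The members, lists and tests were chosen with earlier results of these data known, and leave-one-out with kept TMM factors was added after seeing the data. Sequencing batches are not given in the sources used here, and mature sequences were not used here.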

Additional observations from a re-analysis of the deposited data

How the results depend on the processing

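Of 578 values under alternatives, 518 were scored as unchanged. Tested values had to keep their direction and side of the threshold, so comparisons that stayed uncalled are included. Other values had to move less than the replicates spread. Counts had a wide margin, so that 11 and 22 pairs for miR-152 were scored as unchanged from 15. The call of miR-152 in male gut over male brain was lost in 11 of 20 alternatives. Among the 578 values, 14 changed sign, none of them in a comparison that was called. These were miR-152 in female against male brain with the size factors of DESeq2 (0.043) and the DESeq2 test (0.033), heart against eye with library size alone (0.16 for miR-148, 0.093 for miR-152) and with these groups alone (0.020 for miR-148), the ratio between ovary and testis from pooled counts (0.036), and values with a library left out. In the comparison of male liver with male gut, miR-148 was called with library size alone (log2 difference 1.34) and with the F-test without a fold threshold (0.95), and miR-152 with library size alone (1.74), the filter on low counts (1.38), that F-test (1.35) and a fit of these groups alone (1.40). That F-test also called embryo against ovary for miR-148 (-0.81) and miR-152 (-0.44). It called 30 of the 36 pairs for miR-148 and 22 for miR-152. The share of all miRNAs called by that F-test was not counted here, so nothing is read from its calls for the members. For male gut against male brain, miR-152 was not called with the size factors of DESeq2 (1.08), the DESeq2 test (1.08), library size alone (0.80) or the groups alone (1.18). The size factors of DESeq2 and the DESeq2 test also ended the calls of miR-152 between male liver and testis (1.19 and 1.19), and of eye over male brain for miR-148 (0.94 and 0.93) and miR-152 (1.13 and 1.12), and lowered the pairs called for miR-152 to 6 and 4. With library size alone, the log2 difference between female and male liver was 1.61 for miR-148 and 0.81 for miR-152. Apart from the shift in scaling where the median of all miRNAs moved, the cause was not tested.

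With 1 library left out, the log2 differences ranged from 1.02 to 1.36 (miR-148) and 1.19 to 1.56 (miR-152) for eye over male brain. For miR-152 they ranged from 0.84 to 1.32 for male gut over male brain, 1.27 to 1.48 for male liver over male gut and 1.14 to 1.44 for male liver over testis, and the pairs called from 6 to 15. Signs turned in the ranges -0.13 to 0.050 for miR-152 in female against male brain, -0.18 to 0.015 for the ratio there and -0.10 to 0.13 for the ratio between ovary and testis. With the replicate block, the difference of miR-148 between male liver and male brain was 3.37, the pairs called for miR-152 were 14, and no call of the 9 comparisons changed. Same-numbered libraries did not deviate together in every pair (correlations from -0.18 to 0.25), so the numbers were not taken as pairing. With Spearman correlation, 1 of the 5 miRNAs nearest to miR-148 and 3 of the 5 nearest to miR-152 stayed among the 5, as they did without female liver and female gut. Low counts limit the brain values most, with as few as 84 reads of miR-152. Ovary, the group with the shallowest library, had as few as 100.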
